A study of Mus musculus with 6 samples.

Results

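Expression of the DEAD and DEAH box RNA helicases was examined in BV2 cells after 1 h of exposure to adenine, a purine base, or none. BV2 is an established mouse line made from microglia, which are the brain's own macrophages. The members were all probes whose platform gene symbol is DDX or DHX followed by a digit, without DDX58 and DHX58. This gave 56 of 26423 probes, which stand for 49 of 17742 named genes, 34 named DDX and 15 named DHX. Of the 51 protein-coding Ddx and Dhx genes of the RefSeq table (GRCm38.p6), again without those 2, 48 had a member probe, and the remaining member is the gene the platform calls DDX26B, now Ints6l. There were 3 groups of 2 single-colour arrays: untreated control cells, cells given a lower adenine dose and cells given a higher adenine dose. The labels disagree on the doses, 20 and 80 µM by the titles but 80 and 250 µM by the characteristics, so only their order is used. All groups are the same cell line in the same serum-supplemented medium and differ, by their labels, only in adenine. The design text describes separate cultures, but the titles do not tie each array to a culture. If 2 arrays of a group shared one, the p-values would measure technical spread only.

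DEAD and DEAH box proteins are enzymes that use ATP to separate RNA strands or to strip proteins from RNA, and they are named after amino acid letters in one of their conserved motifs. DEAD box members mostly open short duplexes locally, whereas many DEAH box members move along a strand and take whole complexes apart. Between them they serve splicing, mRNA export, ribosome assembly, translation, mRNA decay and the sensing of foreign nucleic acids, the last of these a function of macrophages and microglia.

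Intensities below are in the scanner's units after quantile normalization between arrays, and changes are log2 differences with the standard error (SE) of a limma fit to all 6 arrays. A change is called at an adjusted p under 0.05 over all 26423 probes. Over probes above the median intensity, Pearson's r was 0.9894 between the higher-dose arrays, 0.9287 to 0.9406 between a higher-dose array and any other, and 0.9782 to 0.9858 within the remaining 4. Of 15 listed microglia and macrophage markers, 12 were measured, 11 of them above the median probe, and Cx3cr1 was not (88.7 to 119 units over the 6 arrays). The summed intensity of these markers was 96763 and 103849 units in control cells, 102805 and 97894 at the lower dose and 147773 and 134191 at the higher dose. At the higher dose against control, 3 of the 12 were called higher and 0 lower, against 6.37% and 5.39% of all named genes. Among named genes above the median intensity the shares were 9.55% and 7.7%. The sums rest on a few bright probes, and the median log2 change of the 12 markers was 0.11, with 6 below 0, among them Csf1r (−0.48), Adgre1 (−0.49) and Tmem119 (−0.49), none called. Of the markers of fibroblasts, astrocytes and neurons, 0 of 6, 1 of 5 and 1 of 4 measured genes lay above the median probe, and 4 of 5 oligodendrocyte and 4 of 6 endothelial ones did. No marker of these 5 other cell types was called at either dose against control. The part of any of these marker levels in the results below was not tested.

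At the higher dose, most helicase probes read lower than in control cells, and a few read higher. Of 56 probes, 9 fell and 3 rose, against 5.06% and 5.55% of all probes. These 9 probes stand for Ddx51, Ddx27, Ddx6, Ddx1, Ddx31, Dhx15, Dhx36, Dhx40 and Ddx11. The 3 risers were Dhx9, Ddx25 and a second probe of Ddx6. The median log2 change of the 56 probes was −0.40, against −0.01 over all probes, and 44 of them (78.6%) had a value below 0, against 51.1% of all probes. In 36 of the 56 (64.3%), both higher-dose arrays lay below both control arrays, which held for 31.3% of all probes. In 8 both lay above, which held for 28.8% of all probes. Most helicase probes are brighter than the median probe. Of the 50 above the median intensity, 8 fell and 2 rose, against 7.8% and 9.17% of all such probes, and their median was −0.40, against −0.05. In this brighter set 40 of 50 had a value below 0, against 53.7% of all such probes, and both higher-dose arrays lay below both controls in 33 and above them in 6, against 39.7% and 34.0%. In RNA pooled from a culture, fewer cells with a transcript and less of it per cell cannot be told apart.

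**Figure D1:**
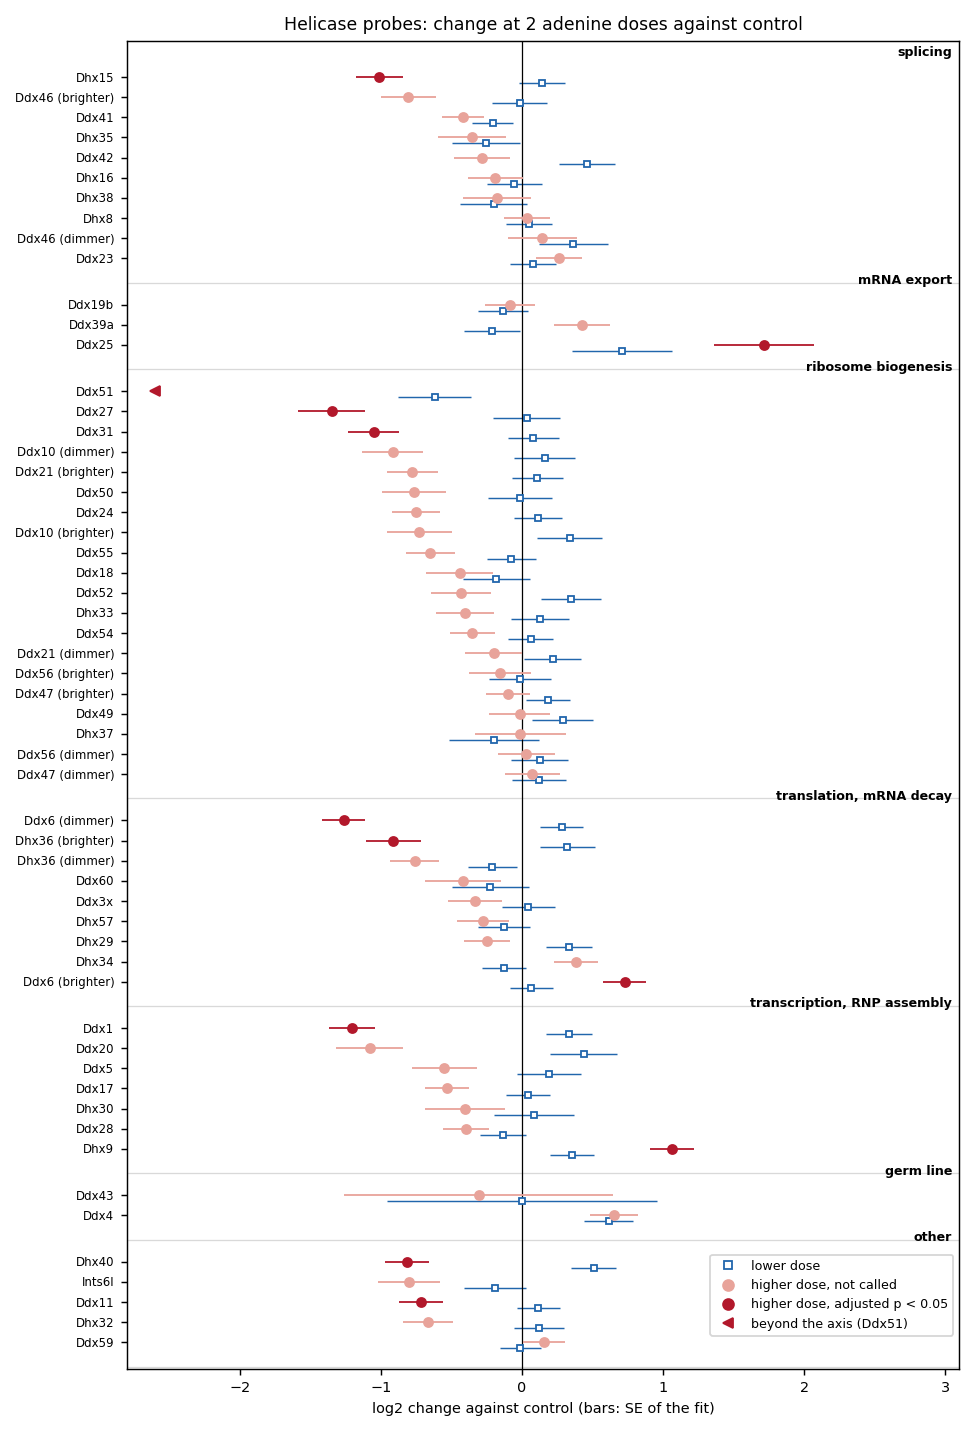
Log2 change of each of the 56 helicase probes against control (x axis) by role (rows), at the lower dose (open blue squares) and the higher dose (circles, dark red where called at adjusted p under 0.05), with bars for the SE of the fit. Most higher-dose circles lie left of 0 and most lower-dose squares near 0, and Ddx51 (−6.02) lies beyond the axis and is drawn as a triangle.

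**Figure D2:**
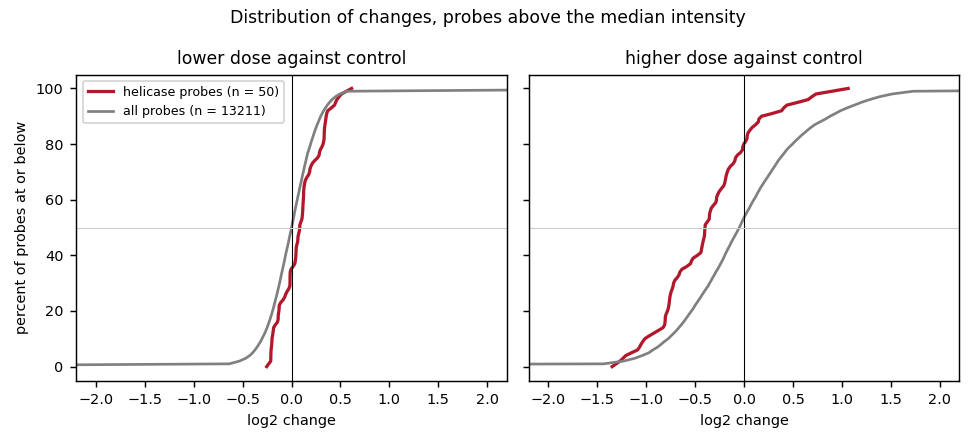
Cumulative percent of probes (y axis) at or below a log2 change (x axis), for 50 helicase probes (red) and all 13211 probes (grey) above the median intensity. In the right panel, the higher dose against control, the helicase curve crosses 50% at −0.40 and the grey one at −0.05, and in the left panel, the lower dose, both cross near 0.

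These counts depend on the precision that 6 arrays allow. The 9 falls became 0 without either control array, 0 without higher-dose replicate 1, 1 without higher-dose replicate 2 and 4 without either lower-dose array, and the 3 rises became 0 without any 1 of the control or higher-dose arrays and 1 without either lower-dose array. In these fits 0.0151% to 2.43% of all probes fell. Leaving out a lower-dose array cannot alter the median log2 change. It stayed between −0.44 and −0.38 without a control or a higher-dose array. It was −0.38 without normalization and −0.45 with array medians made equal. A fit to only the probes above the median intensity called 20 helicase falls and 3 rises among the 50, against 22.6% and 19.2% of all probes in that fit.

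The 16 genes of ribosome biogenesis, measured by 20 probes, held 3 falls and 0 rises, with a median of −0.44 and 18 probes below 0. Over all probes 5.06% fell and 5.55% rose, the shares beside which this count and those of the roles below stand. No role was tested against these shares. Ddx27, a nucleolar helicase for the large ribosomal subunit, read 4813 and 6436 units in control cells, 5259 and 6159.7 at the lower dose and 1907 and 2506 at the higher dose. Both higher-dose arrays read lower than those of either other group, and the fall against control was 2.55-fold (log2 −1.35 ± 0.24, adjusted p = 0.0323). Ddx31, another nucleolar helicase, read 753 and 631 units in control cells, 768 and 692 at the lower dose and 358 and 309 at the higher dose (log2 −1.05 ± 0.18 at the higher dose, adjusted p = 0.0307). Its higher-dose arrays were again the lowest 2 of the 6. Ddx51, known in mouse cells for a late step of large-subunit rRNA processing, was dim. Its deposited values were 55 and 65 units in control cells, 54 and 43 at the lower dose and 0 and −1 at the higher dose, the last pair at the background level (adjusted p = 0.0069 for the higher dose against control). No fold is given for it, since its fitted change of −6.02 depends on the floor of 1 unit and was −2.34 with log2(value + 16). Both higher-dose arrays lie at this floor, which sets their log2 spread to 0 and so enters the adjusted p.

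The other ribosome biogenesis probes did not pass at the higher dose against control. Ddx21, which links transcription and processing of rRNA in the nucleolus, read 11428 and 10229.5 units in control cells, 13018 and 10406 at the lower dose and 6524 and 6099 at the higher dose by its brighter probe (log2 −0.78 ± 0.18, adjusted p = 0.0573). The higher-dose arrays lay apart from the others there, while the dimmer Ddx21 probe overlapped with control (log2 −0.20 ± 0.20, adjusted p = 0.568). Close in value were Ddx50, the paralogue of Ddx21 (log2 −0.77 ± 0.23, adjusted p = 0.095) and Ddx24, a nucleolar helicase that read 17112 and 14525 units in control cells, 16858 and 17233 at the lower dose and 10054 and 8742 at the higher dose (log2 −0.75 ± 0.17, adjusted p = 0.054). Ddx10 read 1039.7 and 1396 units in control cells, 1428 and 1620.1 at the lower dose and 636 and 832 at the higher dose by its brighter probe. Its 2 probes stood at −0.73 and −0.92 (adjusted p = 0.113 and 0.0582), and in both the higher-dose arrays were the lowest. At the other end of this group stood Ddx47, Ddx49, Ddx56 and Dhx37, whose 6 probes ranged from −0.16 to 0.07 and overlapped with control in each case. The remaining genes were Ddx55 (−0.65 ± 0.17), Ddx18 (−0.44 ± 0.24), Ddx52 (−0.43 ± 0.21), Dhx33 (−0.40 ± 0.21) and Ddx54 (−0.35 ± 0.16). In these 5 both higher-dose arrays lay below both controls.

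**Figure D3:**
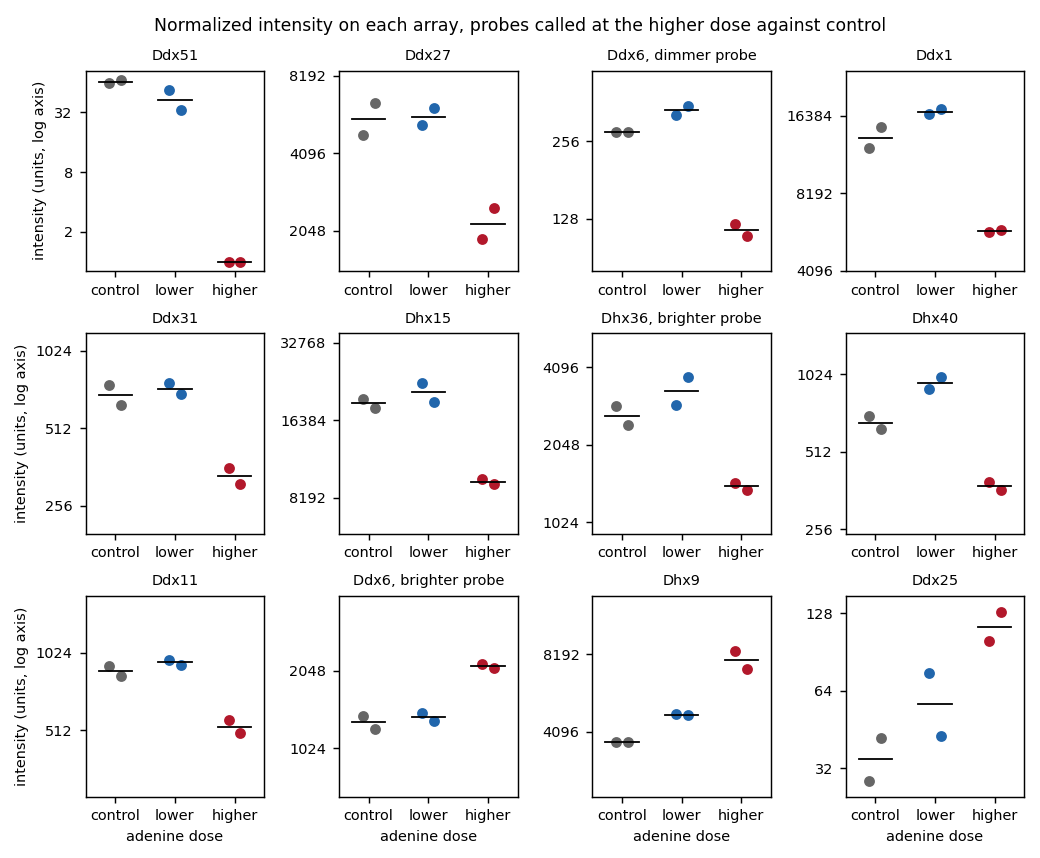
Normalized intensity in units (log y axis, a scale of its own in each panel) on every array for the 12 probes called at the higher dose against control, by adenine dose (x axis); points are arrays, 2 per group, and lines are group means on the log2 scale. In 9 panels the higher-dose points are the lowest, in 3 (Ddx6 brighter probe, Dhx9, Ddx25) the highest, and Ddx51 values under 1 unit are drawn at 1.

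Among 9 splicing genes with 10 probes, 1 fell and 0 rose, with a median of −0.24. Dhx15, which disassembles spent spliceosomes, read 19922 and 18289.8 units in control cells, 22964 and 19354 at the lower dose and 9698 and 9247 at the higher dose. The higher-dose arrays were 2.02-fold below control (log2 −1.01 ± 0.16, adjusted p = 0.0284), and the lower-dose and control arrays overlapped. The call was lost without normalization (−0.76) and with equal medians (−0.83). Ddx46, which acts when the branch site of an intron is recognised, read 8567 and 7895 units in control cells, 9375 and 7039 at the lower dose and 4596 and 4811 at the higher dose by its brighter probe (log2 −0.81 ± 0.19, adjusted p = 0.0613). Its dimmer probe overlapped between groups (0.14 ± 0.25, adjusted p = 0.744). Ddx41, a spliceosomal helicase that is also reported as a sensor of DNA in myeloid cells, read 12066 and 11350.2 units in control cells, 10619.6 and 9653 at the lower dose and 8790.2 and 8705 at the higher dose (log2 −0.42 ± 0.15 at the higher dose, adjusted p = 0.137). The 6 arrays of Ddx41 were ordered by group without overlap, with the controls highest. Ddx42, a partner of the splicing factor SF3b, stood at −0.28 ± 0.20 (adjusted p = 0.406). The helicases of the catalytic steps, Dhx16, Dhx38 and Dhx8, stood at −0.19, −0.18 and 0.03, and Dhx35 and Ddx23 at −0.36 and 0.26, none of them called. Ddx23 was dim, at 30.2 to 38.3 units over all arrays.

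The 3 export and related genes held 1 rise and 0 falls. Ddx25, a helicase best known from the testis, read 28.5 and 42 units in control cells, 74.8 and 42.8 at the lower dose and 99.4 and 129.7 at the higher dose, under the median probe on every array. It rose 3.28-fold at the higher dose (log2 1.71 ± 0.35, adjusted p = 0.045), with both higher-dose arrays above the other 4. Ddx39a, a helicase of the complex that hands mRNA to its exporter, read 374 and 276 units in control cells, 281 and 274 at the lower dose and 452 and 412 at the higher dose (log2 0.42 ± 0.20 at the higher dose, adjusted p = 0.236). Ddx19b, which acts at the nuclear pore, overlapped between groups (−0.09 ± 0.18, adjusted p = 0.792). Ddx19b, Ddx39a and Ddx3x have near-identical relatives, Ddx19a, Ddx39b and Ddx3y, and the share of these in the signals was not tested.

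Of the 7 genes of translation and mRNA decay, with 9 probes, 2 probes fell and 1 rose. Dhx36, which unwinds four-stranded G-quadruplexes in RNA and DNA, read 2888 and 2447 units in control cells, 2932 and 3754 at the lower dose and 1460.2 and 1366 at the higher dose by its brighter probe. It fell 1.88-fold at the higher dose (log2 −0.91 ± 0.19, adjusted p = 0.0483), and its dimmer probe stood at −0.76 ± 0.17 (adjusted p = 0.0548), with higher-dose arrays below all others in both. The call of the brighter probe was lost in 4 of 11 alternatives, aside from those leaving 1 array out. The 4 were no normalization, the replicate number as a block, only the 2 groups compared and removal of the trend with gene span. Ddx3x, which helps ribosomes start on structured leaders, read 13908 and 11183 units in control cells, 12099 and 13692 at the lower dose and 10678 and 9173 at the higher dose (log2 −0.33 ± 0.19 at the higher dose, adjusted p = 0.322). Both its higher-dose arrays lay below the controls, by less than the controls differed from each other in the case of the nearest pair. Dhx29, which aids scanning of mRNA leaders, stood at −0.25 ± 0.16, Dhx57 at −0.28 ± 0.18 and the interferon-inducible Ddx60, a dim probe, at −0.42 ± 0.27 (adjusted p 0.375 to 0.384). Dhx34, known from human cells as a factor of nonsense-mediated mRNA decay, read 2819 and 2849 units in control cells, 2565 and 2632 at the lower dose and 3985 and 3414 at the higher dose (log2 0.38 ± 0.16 at the higher dose, adjusted p = 0.185), with both higher-dose arrays above the other 4.

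The 2 probes of Ddx6 were called in opposite directions. Ddx6 represses translation and activates removal of the mRNA cap, and it gathers in cytoplasmic P-bodies. Its brighter probe read 1367 and 1218 units in control cells, 1398 and 1306 at the lower dose and 2171 and 2102 at the higher dose, a rise of 1.66-fold at the higher dose (log2 0.73 ± 0.15, adjusted p = 0.0459). Its dimmer probe read 278 and 276 units in control cells, 322 and 352 at the lower dose and 122 and 109.5 at the higher dose, a fall of 2.4-fold (log2 −1.27 ± 0.15, adjusted p = 0.0204). In both probes the higher-dose arrays lay apart from the other 4. The mean of the 2 probes changed by −0.27 (adjusted p = 0.238), so no direction is given for the gene. The rise of the brighter probe was not called without normalization or with equal medians, and the fall of the dimmer one was called under both. The part of the transcript that each probe reads is not known here, and a difference between transcript forms was not tested.

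Of the 7 genes with 2 probes, Ddx6, Ddx46, Ddx47 and Ddx56 had values of opposite sign at the higher dose and Ddx10, Ddx21 and Dhx36 had 2 negative values. In Ddx47 and Ddx56, known for ribosome assembly, all 4 values lay between −0.16 and 0.07 and were smaller than their SE. Only in Ddx6 were both probes called.

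**Figure D4:**
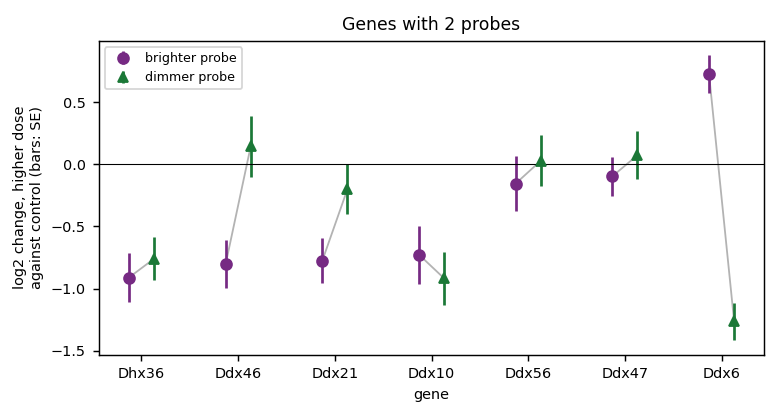
Log2 change at the higher dose against control (y axis, bars for the SE) of the brighter (purple circle) and dimmer (green triangle) probe of the 7 helicase genes with 2 probes (x axis). The probes of Ddx6 differ most, at 0.73 and −1.27, and those of Dhx36 lie within 1 SE of each other, at −0.91 and −0.76.

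The 7 genes of transcription, small RNP assembly and mitochondrial ribosomes held 1 rise and 1 fall, with a median of −0.53. Dhx9, also known as RNA helicase A, a transcriptional coactivator that resolves double-stranded RNA, was the one bright gene of the family with a rise in its single probe. It read 3727 and 3743 units in control cells, 4807 and 4733 at the lower dose and 8458 and 7203 at the higher dose. The 3 groups did not overlap, and the higher-dose level was 2.09-fold that of control (log2 1.06 ± 0.16, adjusted p = 0.0249). Over all alternatives the change stayed between 0.95 and 1.20, and the call was lost in 5 of 16, among them each that left out a control or higher-dose array (adjusted p up to 0.135). Ddx1, a member of the complex that ligates tRNA exons, read 12306 and 14783 units in control cells, 16633 and 17371 at the lower dose and 5795 and 5899 at the higher dose. It fell 2.31-fold (log2 −1.21 ± 0.16, adjusted p = 0.022), and its 2 higher-dose arrays were nearly equal and lower than the other 4. Ddx20, or Gemin3, the helicase of the SMN complex that builds spliceosomal RNPs, read 5326 and 7156 units in control cells, 7928 and 8819 at the lower dose and 2522 and 3376 at the higher dose and stood just outside the threshold at the higher dose (log2 −1.08 ± 0.24, adjusted p = 0.0506). Its higher-dose arrays were the lowest and its lower-dose arrays the highest.

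The closely related Ddx5 and Ddx17, coregulators of transcription that also assist microRNA processing, did not pass. Ddx5 read 2929 and 3762 units in control cells, 3552 and 4034 at the lower dose and 1959 and 2623 at the higher dose (log2 −0.55 ± 0.23 at the higher dose, adjusted p = 0.189). Ddx17 read 14525 and 13023 units in control cells, 14502 and 13818 at the lower dose and 10026 and 9051 at the higher dose (log2 −0.53 ± 0.16, adjusted p = 0.0942). In both genes the higher-dose arrays lay below the other 4. Ddx28 and Dhx30, which serve assembly of mitochondrial ribosomes, stood at −0.40 ± 0.16 and −0.41 ± 0.28 (adjusted p = 0.188 and 0.408).

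Of the germ-line helicases, Ddx43 lay at the background on every array (−4 to 5 units as deposited), so its change has no order. Ddx4, the mouse Vasa protein and a defining gene of germ cells, read 398 and 399 units in control cells, 554 and 670.0 at the lower dose and 666 and 587 at the higher dose. Both doses lay above both controls and overlapped with each other, but neither change was called (log2 0.61 ± 0.17 at the lower dose, adjusted p = 0.764, and 0.65 ± 0.17 at the higher, adjusted p = 0.0752). Of the 5 remaining genes, 2 fell. Dhx40, a DEAH member of little known function, read 706 and 629 units in control cells, 898 and 997 at the lower dose and 393 and 365 at the higher dose (log2 −0.81 ± 0.16 at the higher dose, adjusted p = 0.04). Ddx11, a DNA helicase of sister chromatid cohesion, read 910.3 and 831 units in control cells, 964 and 921 at the lower dose and 559.8 and 500.0 at the higher dose (log2 −0.72 ± 0.15, adjusted p = 0.0492). Higher-dose arrays were the lowest in both genes. Both calls were lost without normalization, where the changes were −0.86 and −0.79. Ints6l, a relative of an Integrator subunit, read 2694 and 3592 units in control cells, 2709 and 2747 at the lower dose and 1572 and 2019.5 at the higher dose (log2 −0.80 ± 0.22, adjusted p = 0.0809), and Dhx32 read 2599.8 and 2589 units in control cells, 2546 and 3116 at the lower dose and 1751 and 1524 at the higher dose (log2 −0.67 ± 0.18, adjusted p = 0.0755). In both the higher-dose arrays were the lowest without a call, and Ddx59 stood at 0.16 ± 0.15 (adjusted p = 0.538).

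RefSeq promoter windows of 300 bases, 250 before and 50 after an annotated start (GRCm38.p6), were matched by symbol for 44 of the 49 genes, 55 windows in all. They were rich in CG, with a median of 24 CG dinucleotides per window, against 7 over all 32851 windows. The following 4 genes are shown because they were called at the higher dose and the 150 bases before their start hold 1 of the motifs searched, beside CCAAT. Capitals mark the motif, read on the gene's strand: an ETS motif in Dhx9 (chr1:153487661-153487810, minus strand), a cyclic AMP response element (CRE) in Ddx51 (chr5:110653301-110653450, plus strand) and in Dhx36 (chr3:62506989-62507138, minus strand), and an E-box in Dhx40 (chr11:86807661-86807810, minus strand).
Dhx9: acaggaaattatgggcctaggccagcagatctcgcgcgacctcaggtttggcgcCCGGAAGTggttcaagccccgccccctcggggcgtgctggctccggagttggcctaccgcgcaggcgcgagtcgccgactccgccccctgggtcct
Ddx51: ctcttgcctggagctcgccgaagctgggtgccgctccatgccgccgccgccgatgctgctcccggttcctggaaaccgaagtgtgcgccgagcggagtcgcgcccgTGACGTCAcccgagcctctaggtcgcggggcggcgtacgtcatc
Dhx36: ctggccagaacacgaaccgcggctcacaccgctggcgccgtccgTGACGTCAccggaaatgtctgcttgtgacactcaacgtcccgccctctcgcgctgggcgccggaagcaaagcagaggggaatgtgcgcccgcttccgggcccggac
Dhx40: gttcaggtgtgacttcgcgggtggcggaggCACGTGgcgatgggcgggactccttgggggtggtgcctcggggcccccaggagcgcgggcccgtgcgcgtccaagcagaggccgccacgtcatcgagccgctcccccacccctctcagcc
Searched on both strands of the full windows, the CRE letters TGACGTCA were in 5 of 55 helicase windows (9.09%) and 1.79% of all windows, the ETS letters CCGGAAGT in 10 (18.2%) and 3.89%, and the E-box CACGTG in 7 (12.7%) and 7.15%. The short CCAAT letters were in 27 (49.1%) and 37.4%. None of these motifs contains another, and the shares are a description of windows that differ in base composition. Some windows of the same gene overlap, and the CRE of Ddx49 is counted in 2 of them. Of the genes that fell, 7 had a window, and Ddx6 and Ddx11 had none. The CCAAT letters were in 2 of these 7 windows (28.6%), the CRE in 2, the ETS motif in 1 and the E-box in 1.

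At the lower dose against control, 0 of 56 helicase probes were called in limma in either direction, against 0.00757% of all probes higher and 0.00378% lower. At an unadjusted p under 0.05 there were 2, Dhx40 and Ddx4, or 3.57%, against 6.36% of all probes. The median log2 change was 0.08, with values from −0.62 (Ddx51) to 0.71 (Ddx25). It was 0.24 without normalization, where the median of all probes was also shifted, to 0.22, and −0.0005 with equal medians, so the family has no settled direction at this dose. In 14 probes (25%) both lower-dose arrays lay above both controls, which held for 18.5% of all probes, and in 4 (7.14%) both lay below, against 16.6%. The 5 genes with the smallest p were Ddx4, Dhx40 (log2 0.51 ± 0.16), Ddx51 (−0.62 ± 0.26), Ddx42 (0.46 ± 0.20) and Dhx9 (0.35 ± 0.16), all at an adjusted p of 0.764. Ddx42 read 3549 and 3204 units at the lower dose, against 2128 and 2821 units in control cells, without overlap.

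The doses were then set against each other, a difference that uses no control array, although the controls enter the estimate of spread. Relative to the lower dose, 15 of 56 probes were lower and 2 higher at the higher dose, against 6.95% and 6.78% of all probes, and the median was −0.42. Both higher-dose arrays lay below both lower-dose arrays in 36 probes and above them in 7, against 30.7% and 28.5% of all probes. Without normalization between arrays the split was 18 lower and 0 higher, against 11.2% and 4.27% of all probes, with a median of −0.60 where that of all probes was −0.25. Among the 50 helicase probes above the median intensity the counts were 13 and 2, against 10.8% and 11.1% of all such probes. All 9 probes that fell against control were among the 15. The others were Ddx20 (log2 −1.52 ± 0.24, adjusted p = 0.0241), both probes of Ddx10 (−1.06 and −1.08), the brighter Ddx21 probe (−0.88 ± 0.18), Ddx24 (−0.86 ± 0.17) and Dhx32 (−0.79 ± 0.18), with adjusted p from 0.0359 to 0.0473 for the last 5. Ddx1 (−1.54 ± 0.16) and the dimmer Ddx6 probe (−1.55 ± 0.15) had the largest falls after Ddx51, both at an adjusted p of 0.018. Dhx9 (log2 0.71 ± 0.16, adjusted p = 0.0451) and the brighter Ddx6 probe (0.66 ± 0.15, adjusted p = 0.0495) were the 2 that were higher. Without normalization, or with array weights, 0 probes were called higher. With 1 array left out, most of these calls were lost, as were most calls over all probes. The median stayed between −0.52 and −0.42, and leaving out a control array cannot alter it.

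Both families leaned the same way. Of 40 DDX probes, 6 fell and 2 rose at the higher dose against control (median −0.42), and of 16 DHX probes, 3 fell and 1 rose (median −0.32). Over all probes 5.06% fell and 5.55% rose (median −0.01), and over those above the median intensity 7.8% and 9.17%. The difference between the families was not tested. Over the 44 helicase genes above the median intensity, the change at the higher dose ran with gene span at Spearman's rho = −0.159, against −0.326 over all 10267 such genes, a description over genes that share the same arrays. The helicase genes spanned 1.87 to 149.72 kb with a median of 26.72 kb, against 21.54 kb for all. The 22 shorter of them had a median change of −0.40 with 20 below 0, and the 22 longer had −0.54 with 17 below 0. After removal of each array's trend with span the median of all helicase probes was −0.37, with 9 falls and 4 rises, against 5.95% and 6.81% of all probes in that fit. These 9 were not the same set as before, since Ddx11 and the brighter Dhx36 probe lost their calls.

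Genes that work with the helicases were read from 9 lists, 1 probe per gene, the brightest, against 5.39% of all named genes that fell and 6.37% that rose at the higher dose. Most listed genes lay above the median intensity, and of all such named genes 7.7% fell and 9.55% rose. The median log2 change was −0.02 over all named genes and −0.05 over those above the median intensity. Of 13 translation initiation genes, 5 fell and 0 rose (median −0.86), including 2 subunits of eIF2, the factor that brings the initiator tRNA, Eif2s1 (log2 −1.75 ± 0.21, adjusted p = 0.0204) and Eif2s2 (−1.27 ± 0.16, adjusted p = 0.0204). Of 13 other RNA helicases, 2 fell and 0 rose (median −0.37). Eif4a2, a DEAD box helicase under another name that feeds mRNA to the ribosome, read 6090.2 and 6037 units in control cells, 8616 and 9368 at the lower dose and 2230.3 and 1989 at the higher dose (log2 −1.53 ± 0.15 at the higher dose, adjusted p = 0.0186), and its second probe stood at −0.44. Mtrex, the helicase of the nuclear exosome, fell as well (−0.96 ± 0.15, adjusted p = 0.0275). Of 25 other ribosome biogenesis genes, 5 fell and 0 rose (median −0.43), with Utp14a at −1.47 ± 0.18 and Wdr12 at −1.98 ± 0.25 (adjusted p = 0.0204 and 0.0207). Of 19 other spliceosome genes, 5 fell and 0 rose (median −0.53), with Prpf6 at −1.29 ± 0.16 and Cdc5l at −1.17 ± 0.16 (adjusted p = 0.0204 and 0.0225). Of 8 genes listed for the small RNA pathway, 2 fell and 0 rose (median −0.49). They were Ago2 at −2.11 ± 0.22, with −0.77 and −0.35 by its other probes, and Mbnl1 at −1.02 ± 0.17. Dicer1, Xpo5, Tarbp2, Dgcr8, Prkra and Ago1 were not called.

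The other lists were mixed. Of 21 G-patch proteins, a class that includes activators of Dhx15 and related helicases, 1 rose and 1 fell, with a median of −0.40. Pinx1 rose (log2 1.23 ± 0.15) and Gpkow fell (−1.01 ± 0.16). Of 12 decapping factors and Ddx6 partners, Lsm1 rose (1.14 ± 0.20, second probe 0.51) and Lsm14a fell (−0.97 ± 0.17), with a median of −0.23. Of 15 mRNA export genes, 2 rose and 1 fell (median −0.19). The exporter Nxf1 fell (−0.85 ± 0.15) and its partner Nxt1 rose (1.15 ± 0.21, second probe 0.53). The SMN list, which holds partners of Ddx20 and factors of Sm methylation, had the one positive median, 0.29, and 3 of its 10 genes rose and 0 fell. Gemin7, a core subunit, read 543 and 548 units in control cells, 590.3 and 758 at the lower dose and 2307 and 2197 at the higher dose (log2 2.04 ± 0.18 at the higher dose, adjusted p = 0.0185), and Prmt5, which methylates Sm proteins, rose too (1.43 ± 0.24, adjusted p = 0.0304). The third was Gemin6 (0.81 ± 0.16, adjusted p = 0.0398), named after its value was seen. So were the 3 genes of this list below 0, none of them called. They were Wdr77 (−0.61 ± 0.26), Strap (−0.42 ± 0.16) and Gemin5 (−0.13 ± 0.16, second probe −0.75). At the lower dose 0 genes of these 9 lists were called in limma, and list medians lay between −0.07 and 0.16.

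**Figure D5:**
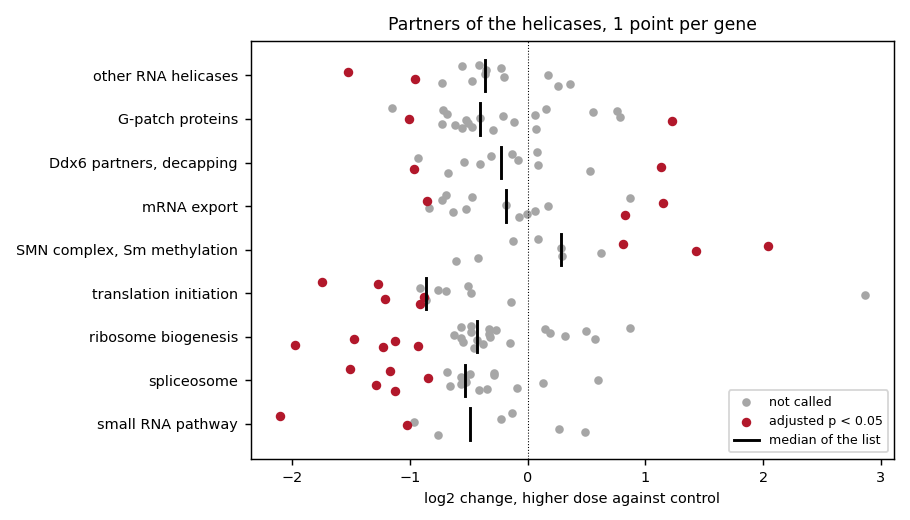
Log2 change at the higher dose against control (x axis) of each measured gene in 9 lists of helicase partners (rows), red where called at adjusted p under 0.05, with a black bar for the list median. Medians lie left of 0, from −0.86 for translation initiation to −0.19 for mRNA export, except that of the SMN list at 0.29.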

How the data were processed

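Each sample is 1 single-colour array (Phalanx OneArray, mouse) read in Cy5, per the labels' protocols. The deposited intensity values are whole numbers on a linear scale, some at or below 0, with array medians of 125 to 170 units. The submitters' processing notes name RMA, which gives log2 values of equal distribution, so the deposited intensity values were treated as not normalized. The sources used here give no scanner settings and no detection flags.

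Arrays were quantile-normalized, values under 1 set to 1 and log2 taken. All 6 arrays were fitted in limma 3.58.1 (R 4.3.3), with a mean for each group and 3 residual degrees of freedom. Tests were two-sided, with p-values adjusted by Benjamini and Hochberg's method over all 26423 probes, and the script was tested on simulated data. The number of arrays limits the precision. Symbols came from the platform annotation, updated through RefSeq (GRCm38.p6): 20377 probes had 1 symbol and 6046 none.

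Members, role groups and partner lists were chosen with earlier results of these data known. Named genes are all probes called at the higher dose against control, the 2 smallest p of each role and partner list, the 5 smallest p at the lower dose, genes whose probes disagree, and a fixed set, of which Ddx3y and Ddx39b have no named probe here. Other members are given by value. Alternatives covered scaling, floor, dim-probe filters, replicate block, prior, array weights, groups fitted, gene span, probe averaging and each array left out.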

Additional observations from a re-analysis of the deposited data

Results flagged for a closer look

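In 7 helicase probes, both lower-dose arrays lay above both controls, both higher-dose arrays lay below both controls, and the doses differed from each other by limma's adjusted p. These are 12.5% of the 56 probes, and 2.83% of all probes showed the same pattern, 4.44% of those above the median intensity, where all 7 lie. The higher dose against the lower gave log2 changes of −1.55 for the dimmer Ddx6 probe, −1.54 for Ddx1, −1.52 for Ddx20, −1.32 for Dhx40, −1.23 for the brighter Dhx36 probe, −1.06 for the brighter Ddx10 probe and −0.83 for Ddx11. The second probes of Ddx6, Dhx36 and Ddx10 did not show the pattern. At the lower dose against control, the dimmer Dhx36 probe stood at −0.21, against 0.32 for the brighter. The dimmer Ddx10 probe overlapped with control there, and the brighter Ddx6 probe rose at the higher dose. None of the 7 was called at the lower dose against control (adjusted p 0.764 to 0.88), and the 2 comparisons with control share the control arrays. Ddx11 stood at 0.12 ± 0.15 there. The pattern was read after quantile normalization only, and whether it holds under other scalings was not tested. The median deviation of the 56 probes from the control mean was 0.10 on lower-dose replicate 2, and −0.08 with equal medians. On lower-dose replicate 1 it was 0.09 and 0.07.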

How the results depend on the processing

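Counts of called helicase probes moved with the setting, and median changes moved less. At the higher dose against control, falls numbered 20 with log2(value + 16), with either filter on dim probes and with a trended prior, 15 with array weights, and 4 with only the 2 groups compared, where 1 rise was left. Of all probes tested, 5.06% fell in the chosen setting, and 9.44% with log2(value + 16), 22.6% above the median intensity, 12.9% above the 25th percentile, 10.2% with a trended prior, 7.33% with array weights and 2.43% with only the 2 groups compared. Leaving out 1 array gave 0 to 4 falls and 0 to 1 rises. Between the doses, calls higher numbered 0 without normalization, 1 with equal medians, 4 with log2(value + 16), above the median intensity or with a trended prior, 5 above the 25th percentile, 0 with array weights and 0 with only the 2 groups compared. Calls lower numbered 24 above the median intensity, 23 above the 25th percentile, 23 with a trended prior and 0 with only the 2 groups compared. All-probe shares moved alongside, from 0.0189% to 24.5% lower and 0.00757% to 22.1% higher over these settings. Leaving out 1 array lost most calls between the doses, among the helicases and over all probes, and gave medians of −0.52 to −0.42. The median was −0.60 without normalization. At the lower dose, the median was 0.24 without normalization and −0.0005 with equal medians, and 0.04 to 0.12 with 1 array left out, and calls stayed at 0.

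With the replicate number as a block, 1 fall and 0 rises were left at the higher dose against control, and 9 lower and 0 higher between the doses, where 0.0265% and 0.0151%, and 2.43% and 2.85%, of all probes were called lower and higher. The fall left was that of Ddx51, whose higher-dose arrays both lie at the floor, and Dhx9 had an adjusted p of 0.0552. Deviations of same-numbered arrays correlated at 0.313, 0.033 and −0.226 in the 3 pairs of groups, and the labels state no shared batch, so the numbers were not taken as pairs.

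Sign changed in 16 single-gene refits. The called rise of the brighter Ddx6 probe became −0.27 and, between the doses, −0.44 as the mean of both probes. The rest were uncalled. With 1 array left out, the dimmer Ddx21 probe ranged from −0.41 to 0.0029, Ddx43 from −1.28 to 0.66, the dimmer probes of Ddx46, Ddx47 and Ddx56 from −0.0047 to 0.29, −0.12 to 0.27 and −0.089 to 0.15, and the brighter Ddx56 probe from −0.38 to 0.071. With equal medians the dimmer Ddx46 probe stood at −0.0115, the brighter Ddx47 probe at 0.10 and the brighter Ddx56 probe at 0.0245, without normalization the last 2 stood at 0.18 and 0.098, and with the span trend removed the dimmer Ddx56 probe stood at −0.0232. The cause was not tested, except that some settings remove arrays or probes by their construction.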
